A study of Arabidopsis thaliana with 48 samples.

Results

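Mitochondrion-encoded genes are the genes that Arabidopsis keeps in the DNA of its mitochondria, taken here as every gene of the deposited count tables whose identifier begins with ATMG. They number 146 of the 32678 genes counted, each with 1 row in the tables. Of these, 124 had at least 1 count in some library and 22 had none. Lists of names fixed for the analysis cover 38 identifiers of protein-coding genes and 3 of ribosomal RNAs; the other 105 are mostly open reading frames that carry no product name here. The counts come from whole seedlings of wild type (WT) and of the double mutant snrk1a1/a2, which is named for KIN10 and KIN11, the catalytic subunits of the energy-sensing kinase SnRK1. Seedlings were 3 d old and dark-grown, 4 or 5 d old in the dark or in the light, or 4 d old in the dark or the light with glucose. Each of these 7 conditions was sampled in both genotypes with 3 libraries, which gives 42 libraries in 14 groups. The mutant alleles, the ecotype and the amount of glucose are not stated in the labels. Nor do these say that replicates were grown apart, so p-values measure the spread between libraries, which may be technical.

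The mitochondrial genome of plants encodes core subunits of the respiratory chain and of ATP synthase, part of the cytochrome c maturation machinery, part of the mitochondrial ribosome and its 3 ribosomal RNAs. Most other mitochondrial proteins, including the RNA polymerases that transcribe this genome, are made from nuclear genes and imported. Plant mitochondrial transcripts are trimmed, spliced and edited by imported proteins, and RNA processing and decay are known to shape their levels. SnRK1 is known to be active when sugars and energy are short.

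Library totals ran from 4956025 to 26126836 counts. The targeted genes were counted in every library of both genotypes. KIN11 was at 16.2 to 51.4 CPM (a gene's counts scaled to a library total of 1000000) and KIN10 at 65.6 to 672 CPM. Replicate 1 of the mutant at 4 d in the light and replicates 1 and 3 of the mutant at 5 d in the light had 583, 672 and 651 CPM of KIN10. In the dark with glucose, KIN11 was at 29.3, 21.2 and 31.0 CPM in the WT libraries and at 16.2, 30.9 and 21.7 CPM in the mutant ones. By this gene alone, replicate 2 of each group goes against its label. With glucose in the light KIN11 was at 35.1, 33.0 and 30.9 CPM in WT and at 17.4, 16.8 and 16.7 CPM in the mutant, a log2 difference of -1.01 (edgeR adjusted p = 0.000542). Without glucose KIN11 did not separate the genotypes, at 32.3 to 45.9 CPM in WT and 26.4 to 51.4 CPM in the mutant. There it was called lower in the mutant only at 4 d in the dark, by 0.47 on the log2 scale (edgeR adjusted p = 0.0205). A swap of labels was not tested. KIN10 was higher in the mutant at 4 and 5 d in the light, by 1.24 and 1.71 (adjusted p = 0.00905 and 0.000528). Shares and counts of called genes that rest on these 5 libraries are also given without them. Of the root and shoot markers, PYK10 was at a median of 3050 CPM and RBCS1A at 5280 CPM, while the root-hair gene COBL9 was at 0.864 CPM. The flower genes AG and AP3 did not exceed 1.41 CPM. The pollen gene VGD1 had a median of 0.168 CPM but reached 41.1 CPM. The glucose libraries all carry 1 of the labels' 2 numbering series and the 4 d libraries without glucose all carry the other, so a glucose difference and a series difference cannot be told apart.

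Mitochondrial genes copied in the nucleus had lower median levels in these tables than genes with few or no copied stretches, and the ranges of both groups overlap. Arabidopsis carries a large insertion of mitochondrial DNA in chromosome 2, known from its genome sequence. In the RefSeq TAIR10.1 assembly, 70.6% of the windows of 50 bases of the mitochondrial genome also stood, letter for letter, in a nuclear chromosome, and 70.4% stood in chromosome 2. The counting command recorded in the tables has no option for reads with several locations, and a read from an identical copied stretch has more than 1. The cob gene, which encodes apocytochrome b of complex III, shows an identical copy, whereas cox1, a core subunit of cytochrome c oxidase, has none. The first 60 bases of each, and a stretch of ccmFN1 (a cytochrome c maturation gene) with its near-identical copy, are shown because they contrast a copied, a nearly copied and an uncopied gene. Capitals mark the 1 base that differs between ccmFN1 and its copy. Coordinates are those of RefSeq TAIR10.1, whose mitochondrial sequence is not the one of the authors' TAIR10 tables.
cob, mitochondrion:182799-182858, minus strand: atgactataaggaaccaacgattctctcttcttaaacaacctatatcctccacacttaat
cob copy, chr2:3450863-3450922, plus strand: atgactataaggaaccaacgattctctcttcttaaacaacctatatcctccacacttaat
ccmFN1, mitochondrion:316036-316095, plus strand: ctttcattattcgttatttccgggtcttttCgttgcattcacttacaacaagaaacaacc
ccmFN1 copy, chr2:3297913-3297972, plus strand: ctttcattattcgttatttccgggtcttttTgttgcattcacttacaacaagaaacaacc
cox1, mitochondrion:116286-116345, minus strand: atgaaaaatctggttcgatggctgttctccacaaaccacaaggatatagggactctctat

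The 35 named genes fell into groups by this measure. In 10 genes under 25% of the windows had a nuclear match (atp4, ccmB, cox1, cox2, nad4L, nad9, rps3 and the 3 ribosomal RNA genes), and their mean level was 5.23 to 1374 CPM per kb, with a median of 31.6. In 21 genes over 90% of the windows had a match, and their level was 0 to 6.75 CPM per kb, with a median of 0.104. All 3 ribosomal RNA genes, at 1374, 733 and 72.3 CPM per kb, are in the first group and raise its median. Several genes without unique windows had next to no counts in all 42 libraries together: 4 for cob, 15 for cox3, 4 for nad6, 3 for rps4, 1 each for atp8 and rpl5, and 0 for rps7. Summed over all libraries, atp1 (the alpha subunit of ATP synthase) had 113 counts, while its chromosome 2 copy AT2G07698 had 5180. For a copied gene, a low transcript level and reads that were not assigned cannot be told apart.

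**Figure D1:**
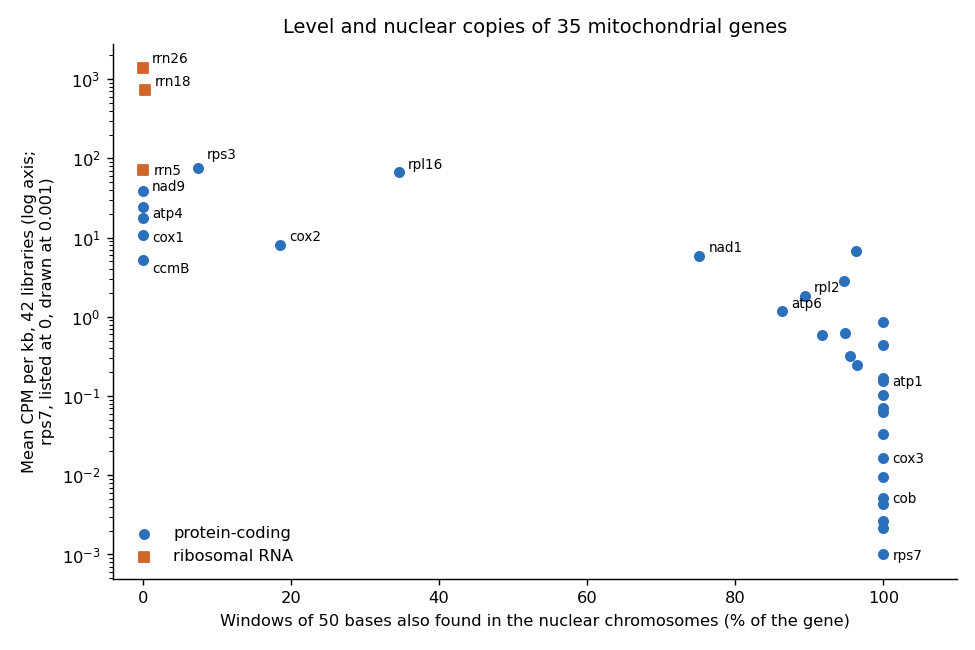
Mean level of 35 mitochondrial genes over 42 libraries (CPM per kb of the annotated gene, log axis) against the percentage of the gene's windows of 50 bases that also occur in a nuclear chromosome; squares are ribosomal RNA genes and circles protein-coding genes, with rps7, at 0 counts, drawn on the lowest tick. The 21 genes over 90% lie at or under 6.75 CPM per kb and the 10 genes under 25% at or above 5.23.

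Among the countable genes, ribosomal RNA dominated. The 3 ribosomal RNA identifiers made 71.5 to 88.6% of the mitochondrial counts of a library. ATMG00020 (2568 bases on TAIR10 ChrM, minus strand, listed as rrn26, the large-subunit RNA) alone held 59.95% of all member counts and ATMG01390 (rrn18, the small-subunit RNA, 1935 bases) 23.7%. ATMG00030, an open reading frame of 324 bases on the plus strand beside ATMG00020, held a further 10.9%, at 0.119 to 0.470 times the CPM of ATMG00020. The tables were made with no strand option, so reads of ATMG00030 and of RNA from the opposite strand cannot be told apart. Of the protein-coding genes, rps3 (a ribosomal protein of the small subunit) was highest at a mean of 127 CPM, followed by rpl16 at 36.01, nad9 of complex I at 22.5 and cox1 at 17.3 CPM. The fifth was the nad5 identifier ATMG00060, at 11.4 CPM, and atp4 of the ATP synthase stalk was at 10.3 CPM.

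The mitochondrial share of a library's counts ranged from 0.113 to 2.21%, a 19.6-fold range with a median of 0.462%, and replicates of 1 group lay far apart. The highest library of a group had 1.95 to 7.60 times the share of the lowest, with a median of 3.51, whereas the highest and lowest group means differed 4.06-fold. In 12 of the 14 groups the replicates spanned more than a 2-fold range. The widest group was the mutant at 4 d in the light with glucose, with 0.812, 1.09 and 0.144%. The highest library of all, at 2.21%, stood beside 0.599 and 0.310% in the mutant at 5 d in the light. The share of protein-coding genes varied further, from 0.00143 to 0.0825% over libraries and up to 18.5-fold within a group. In whole seedlings, fewer mitochondria-rich cells, less mitochondrial RNA per cell and technical differences between libraries cannot be told apart. For comparison, the plastid genes held 1.35 to 4.18% of the counts and varied at most 1.92-fold within a group.

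**Figure D2:**
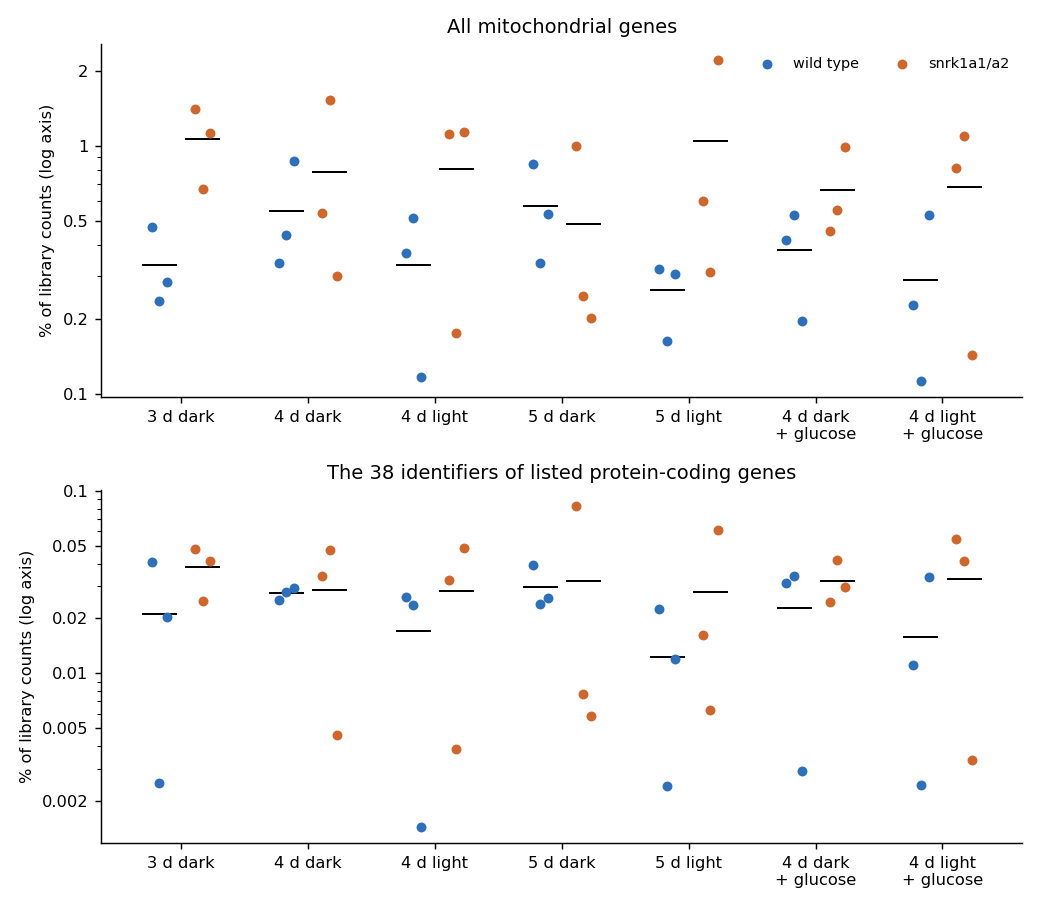
Share of each library's counts in all 146 mitochondrial genes (top) and in the 38 identifiers of listed protein-coding genes (bottom), in percent on log axes, by condition; each point is 1 library, lines are group means of 3 libraries, WT in blue and snrk1a1/a2 in orange. Points of 1 group lie 1.95- to 7.60-fold apart in the upper plot and up to 18.5-fold apart in the lower one.

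The kinds of mitochondrial RNA deviated together in a library. Each library's log2 share was set against the mean of its group, and 4 relations were computed over the 42 libraries with permutations within groups. The protein-coding share rose with the ribosomal RNA share (Pearson r = 0.87, Spearman rho = 0.87, permutation p = 1e-04 for each, the smallest that the permutations can give, and adjusted p = 0.0002 for r over the 4 relations). Without the 2 libraries of the most extreme protein-coding share r was 0.85, and it was 0.86 without and 0.90 within the glucose groups. The protein-coding share also rose with the plastid share (r = 0.83, rho = 0.85, permutation p = 1e-04), and both mitochondrial shares fell with the library total. For the ribosomal RNA share against the total r was -0.76 and rho -0.77 (permutation p = 0.0002 and 1e-04), and r was -0.70 without the 2 extreme libraries. For the protein-coding share r was -0.57 and rho -0.64 (permutation p = 0.0002 and 0.0003). Shares and totals have the total in common, and their part in the comparisons below was not tested.

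**Figure D3:**
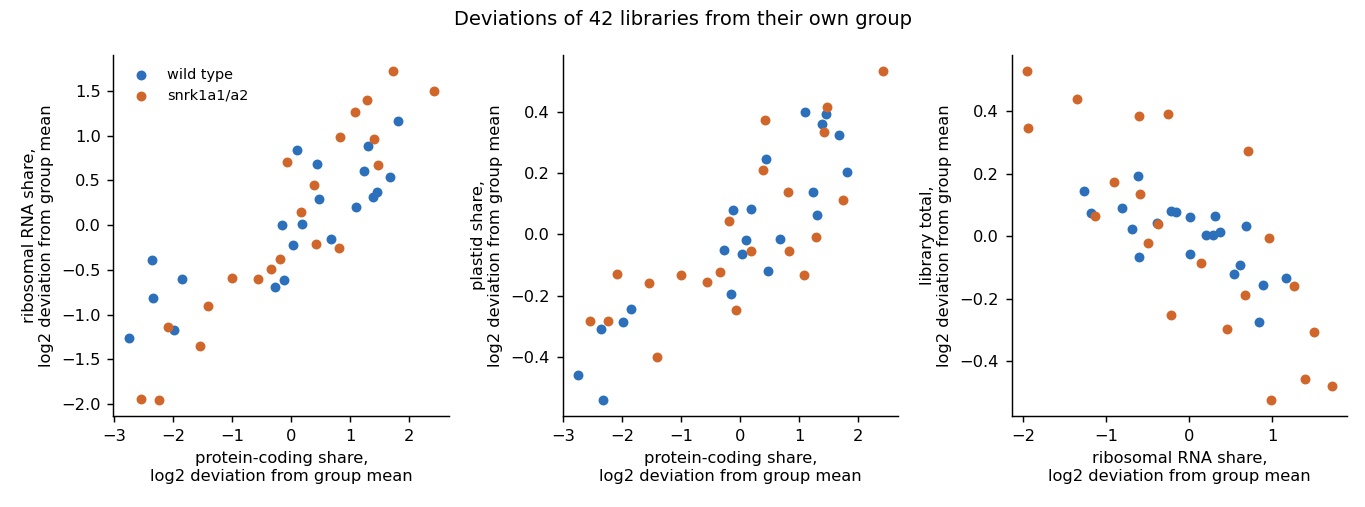
Deviation of each of 42 libraries from the mean of its own group, on log2 scales, for the protein-coding against the ribosomal RNA share (left), the protein-coding against the plastid share (middle) and the ribosomal RNA share against the library total (right); WT in blue, snrk1a1/a2 in orange. The first 2 relations rise (r = 0.87 and 0.83) and the third falls (r = -0.76).

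The genes outside the mitochondrial genome that were most like the mitochondrial protein-coding share were all plastid genes. Among 13775 genes of at least 10 CPM on average, the 5 highest Pearson correlations of log2(CPM + 0.5) with the log2 share over the 42 libraries were those of rpoC1 (r = 0.95), rpl20 (0.93), rps12 (0.93), trnS (0.92) and ycf4 (0.92). The first encodes a subunit of the plastid RNA polymerase, and the next 2 encode plastid ribosomal proteins. The median over 91 plastid genes was 0.74, and over all genes compared 0.04. These values describe likeness over libraries that share their totals and carry no test.

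Genotype was compared first on the whole share. The mitochondrial share was 1.82 times as high in snrk1a1/a2 as in WT, as the mean of the log2 differences over the 7 conditions (0.87 on the log2 scale), and the mutant mean was higher in 6 of 7 conditions. Over 42 libraries with labels permuted within conditions, the two-sided permutation p was 0.01025 and the adjusted p over the tests of genotype, light and glucose 0.03075. The 21 mutant libraries had 0.144 to 2.21%, with a median of 0.669, and the 21 WT libraries 0.113 to 0.868%, with a median of 0.338, so the genotypes overlap. Without the 3 mutant libraries of raised KIN10 the difference was 0.62 with a permutation p of 0.0524, and without replicate 2 of the dark glucose groups it was 0.92 (permutation p = 0.00829). In the 5 conditions without glucose it was 0.83 (permutation p = 0.0399), and in the 2 glucose conditions 0.96, where an exact permutation test gave p = 0.12. Library totals had medians of 13602339 in the mutant and 13858930 in WT, but differed more within some conditions. At 5 d in the light they were 7098017, 9372603 and 4956025 in the mutant and 9261008, 8444907 and 8874381 in WT. At 5 d in the dark they were 10653189, 14469012 and 14845385 in the mutant and 9487599, 9406820 and 8913878 in WT. Only at 5 d in the dark did the totals of the genotypes not overlap. The part of the totals in the share difference was not tested.

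Ribosomal RNA, at 1.77-fold, and the identifiers outside the lists, at 2.32-fold, were higher in the mutant in 6 and 7 of the 7 conditions. In every library ATMG00030, the open reading frame beside ATMG00020, made most of the counts outside the lists. In replicate 1 of the mutant at 3 d in the dark it made 0.1565 of 0.1645%. The 2.32-fold difference is therefore mainly that of 1 identifier. The protein-coding share was 1.52-fold, higher in 5 of 7 conditions, with a permutation p of 0.232. In single conditions the 3 mutant and 3 WT libraries did not overlap at 3 d in the dark alone, with 1.41, 0.669 and 1.13% in the mutant against 0.472, 0.237 and 0.283% in WT (3.23-fold, exact permutation p = 0.1, the smallest that 3 against 3 allow). At 5 d in the dark the means were 0.482% ± 0.445 (SD, n = 3) in the mutant and 0.571% ± 0.255 (SD, n = 3) in WT.

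The share did not pass the test for light or for glucose. The 18 light libraries had a median share of 0.345% and the 18 dark ones 0.490%, a mean log2 difference of -0.31 (permutation p = 0.396, adjusted p = 0.544). It was -0.59 without the libraries of raised KIN10 (permutation p = 0.12) and -0.73 for protein-coding genes alone (permutation p = 0.188). The WT libraries at 5 d in the light lay under those in the dark without overlap, at 0.320, 0.164 and 0.305% against 0.844, 0.338 and 0.530% (exact permutation p = 0.1, the smallest possible with n = 3). With glucose the median was 0.488% in 12 libraries and without it 0.473% in 12, a mean log2 difference of -0.26 (exact permutation p = 0.544). It was -0.15 without the libraries of raised KIN10 (permutation p = 0.749) and -0.31 without replicate 2 of the dark glucose groups (permutation p = 0.501). Without the ribosomal RNA genes it was 0.03 (permutation p = 0.926), and for protein-coding genes alone -0.03 (permutation p = 0.959).

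Single genes were tested with edgeR's quasi-likelihood test in a fit of all 42 libraries, and p-values were adjusted by Benjamini-Hochberg over 22586 genes. A filter on low counts left 48 of the 146 mitochondrial genes in the test, and 98, cob, cox3, nad6 and rps7 among them, were not tested. The median biological coefficient of variation of the tested members was 74.4%, against 17.99% over all tested genes. A gene is named as called where its adjusted p was under 0.05.

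In all 5 conditions without glucose some mitochondrial genes were higher in snrk1a1/a2, and none was lower. At 3 d in the dark 5 of 48 were higher (17.3% of all tested genes were), at 4 d in the dark 4 (29.5%), at 4 d in the light 8 (28.8%), at 5 d in the dark 7 (29.9%) and at 5 d in the light 25 (33.4%). Lower were 14.3, 28.5, 25.2, 31.4 and 26.4% of all tested genes, and either higher or lower 31.6, 58.0, 54.0, 61.3 and 59.8%. As shares of the members tested these counts are 10.4, 8.33, 16.7, 14.6 and 52.1%, under the share of all genes in the first 4 conditions and above it at 5 d in the light, with no test of that difference. At 3 d in the dark and at 5 d in the light this order turned with the libraries used. The median log2 fold change of the 48 members was 1.35, 0.43, 1.07, 0.24 and 2.42 in the same order of conditions. That of all tested genes was 0.01, 0.01, 0.04, -0.04 and 0.19. At 3 d in the dark the same-numbered WT and mutant libraries deviated together, by a check that no other comparison passed. A fit of these 6 libraries with the replicate as a block tested 33 members and called 25 higher, while 19.8% of all genes were. The labels state no pairing, and this block was chosen after seeing the data. The same libraries without the block gave 14 of 33, against 18.0% of all genes. Without the 3 libraries of raised KIN10, 7 of 50 tested members were called at 5 d in the light (26.3% of all genes were higher) and 7 at 4 d in the light (26.9%). DESeq2 and the fit with no filter on low counts each called 1 member lower at 5 d in the dark.

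The genes called in every condition without glucose were rrn5 (ATMG01380), ATMG01370 and ATMG00660. The gene rrn5 encodes the 5S ribosomal RNA of the mitochondrial ribosome. Its 118 bases, with no identical window of 50 bases in a nuclear chromosome, are given because the genotypes differed on it in all 5 of these conditions.
rrn5, mitochondrion:126001-126118, minus strand: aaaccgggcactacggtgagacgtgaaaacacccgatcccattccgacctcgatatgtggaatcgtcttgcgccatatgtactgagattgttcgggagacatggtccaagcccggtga
Without glucose, the 15 WT libraries had 1.35 to 5.09 CPM of rrn5 and the 15 mutant libraries 4.75 to 32.8 CPM, and in 4 of 5 conditions the genotypes did not overlap. At 4 d in the dark the WT libraries had 2.47, 3.25 and 3.23 CPM and the mutant ones 10.7, 11.5 and 12.1. At 5 d in the light the values were 2.05, 1.66 and 3.16 in WT and 32.8, 17.3 and 24.01 in the mutant, the highest of the 14 groups. The log2 fold changes were 1.11 ± 0.36 (SE) at 3 d in the dark, 1.68 ± 0.39 at 4 d in the dark, 1.73 ± 0.41 at 4 d in the light, 1.54 ± 0.41 at 5 d in the dark and 2.96 ± 0.42 at 5 d in the light, with edgeR adjusted p of 0.0185, 0.000411, 0.000625, 0.00143 and 2.79e-07. At 5 d in the light the call held when the libraries of raised KIN10 were left out, and at 3 d in the dark it was lost under 4 of 13 alternatives.

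ATMG01370, an open reading frame of 336 bases that lies 10 bases from rrn5 on the same strand, was called beside it. Since a read counts for every gene it overlaps, RNA of one and RNA that runs through both cannot be told apart. Its CPM was 0.433 to 1.68 times that of rrn5 over the 42 libraries. Without glucose it lay between 1.78 and 4.22 CPM in WT and between 3.29 and 14.2 CPM in the mutant, and the genotypes did not overlap in any of the 5 conditions. The largest log2 fold change was 1.66 ± 0.40 (SE) at 5 d in the light (edgeR adjusted p = 0.000555). The smallest was 1.19 ± 0.39, at 5 d in the dark (adjusted p = 0.0091).

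ATMG00660 is an open reading frame of 450 bases on the minus strand of TAIR10 ChrM (190104-190553), and its product carries no name here. Its libraries did not overlap between genotypes in any condition without glucose, at 2.59 to 11.2 CPM in 15 WT libraries and 10.6 to 39.9 CPM in 15 mutant libraries. The fold changes ran from 1.23 ± 0.36 (SE) on the log2 scale at 3 d in the dark to 2.96 ± 0.42 at 5 d in the light, with edgeR adjusted p of 0.00975 and 4.21e-07. The open reading frames ATMG00670 and ATMG00690 were each called in 4 of the 5 conditions. ATMG00690 was not called at 4 d in the dark, and ATMG00670 was not called at 3 d in the dark. At 5 d in the light ATMG00690 had 0.972, 0.711 and 1.24 CPM in WT against 10.6, 4.59 and 21.99 in the mutant, and ATMG00670 1.30, 0.711 and 0.789 against 12.8, 4.16 and 19.0. In the mutant, the library with the highest mitochondrial share, replicate 3, was also the highest for both. Without the libraries of raised KIN10, ATMG00670 was still called there (log2 fold change 1.74, edgeR adjusted p = 0.0426) and ATMG00690 was not (1.82, adjusted p = 0.0913).

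**Figure D4:**
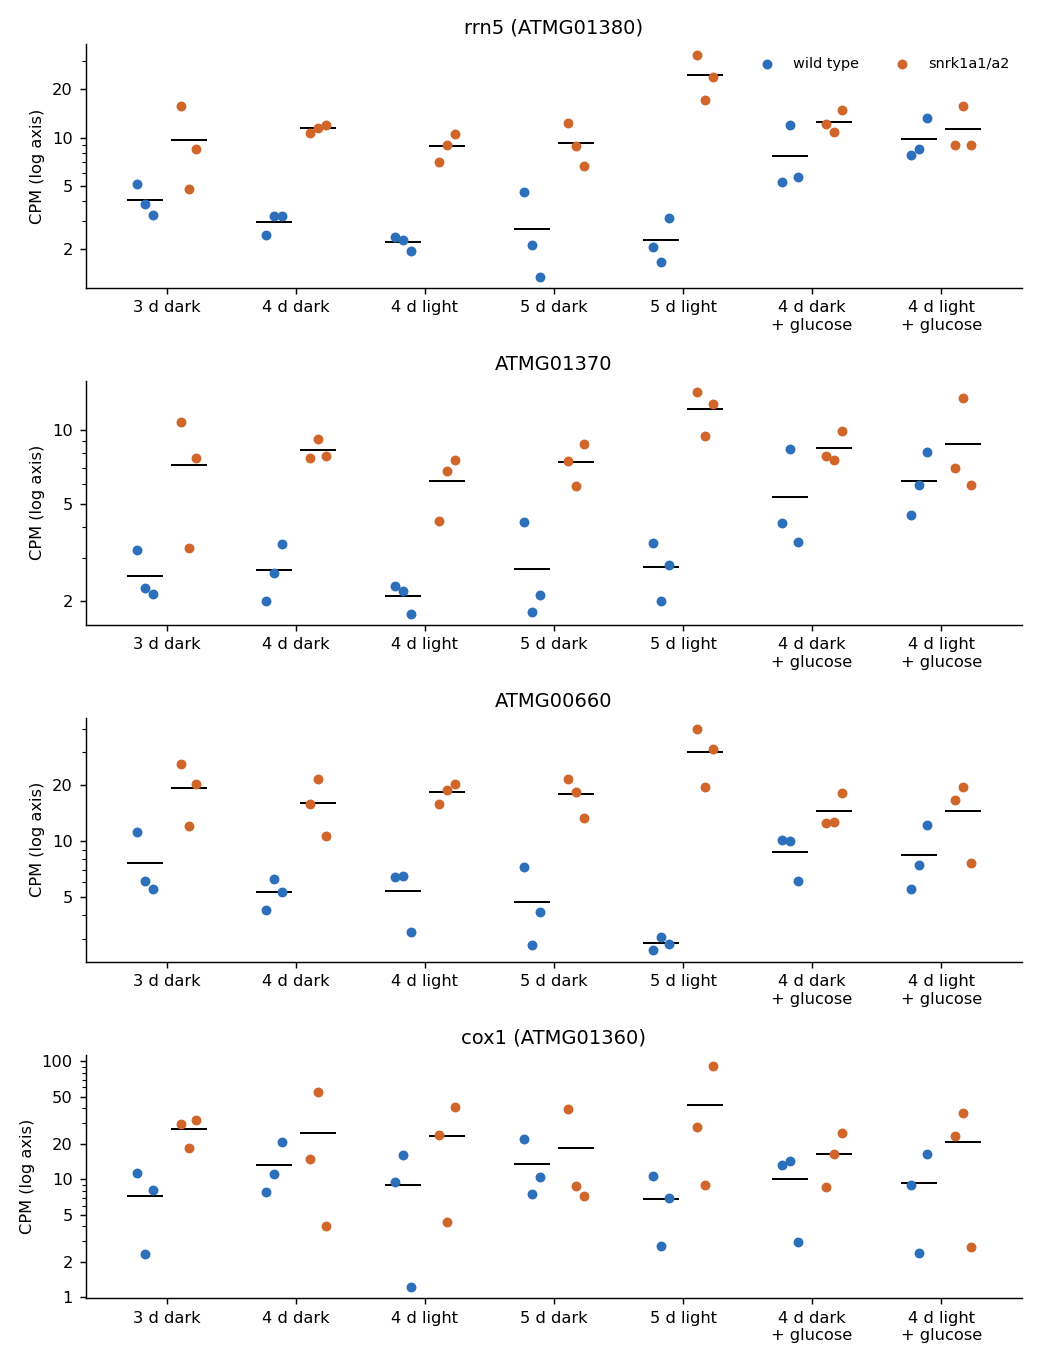
CPM of rrn5, ATMG01370, ATMG00660 and cox1 in each of 42 libraries (log axes) by condition, WT in blue and snrk1a1/a2 in orange; each point is 1 library and lines are means of 3. For the first 3 genes the genotypes separate in the conditions without glucose (rrn5 overlaps at 3 d in the dark), while the cox1 groups overlap in all but 3 d in the dark.

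The respiratory chain, ATP synthase and ribosomal protein genes with many counts did not pass the test. The levels of cox1 were 27.9, 8.96 and 91.8 CPM in the mutant at 5 d in the light and 10.6, 2.72 and 6.99 in WT. Its replicates spanned 1.71- to 13.7-fold within groups, with a median of 5.15, and those of nad9 a median of 16.7-fold. Of rps3 the median was 13.1-fold, against 1.72-fold for rrn5, 1.71-fold for ATMG01370 and 2.01-fold for ATMG00660. The listed protein-coding identifiers that were called were those of nad5 (ATMG00665, a 22-base exon, at 4 and 5 d in the light), ATMG00520 (listed as matR, the maturase of group II introns), ATMG01170 (listed as atp6-2, an ATP synthase subunit) and atp1, all at 5 d in the light. In matR the mutant counts were 8, 6 and 36 and the WT counts 5, 0 and 4. In atp1 the call came with counts of 2, 4 and 11 against 0, 1 and 1. Without the libraries of raised KIN10 none of these 4 was called (edgeR adjusted p = 0.0698 for ATMG00665, 0.825 for matR, 0.849 for atp6-2 and 0.267 for atp1). Beside rrn5, the other called identifiers at 5 d in the light carry no product name here. ATMG00130 was at 0.324, 0.118 and 0.113 CPM in WT against 3.24, 2.35 and 11.1 in the mutant.

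**Figure D5:**
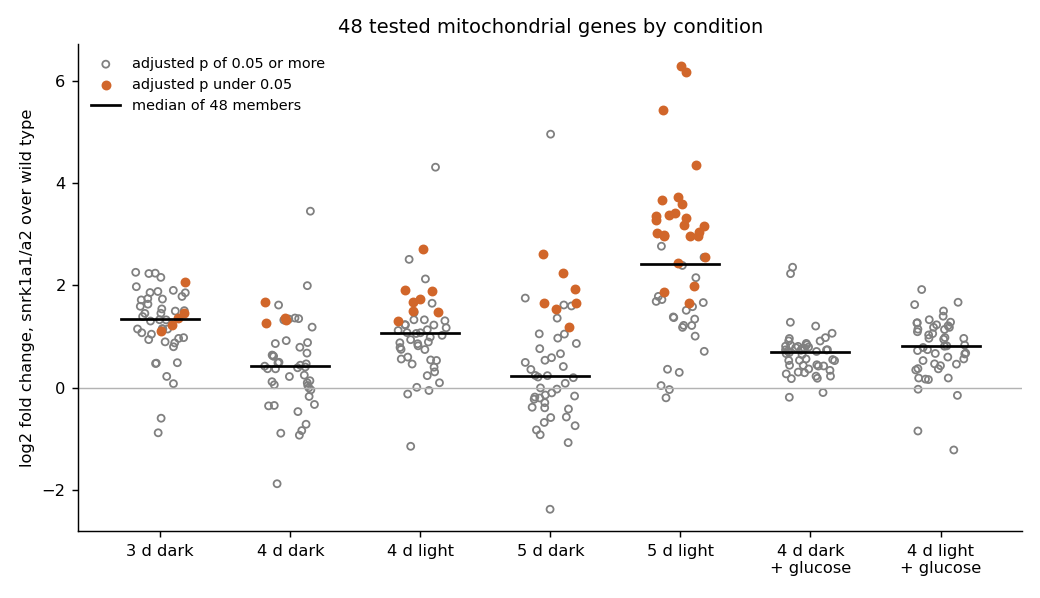
log2 fold change of snrk1a1/a2 over WT for the 48 tested mitochondrial genes in each of 7 conditions, filled where the edgeR adjusted p was under 0.05; the bar is the median of the 48. The medians are 1.35, 0.43, 1.07, 0.24, 2.42, 0.70 and 0.81, and calls stop at the 2 glucose conditions.

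With glucose no mitochondrial gene was called between the genotypes. Of all tested genes 0% were called in the dark and 9.46% in the light (4.29% higher and 5.17% lower), and 1 member had an unadjusted edgeR p under 0.05 in each. DESeq2 also called 0 members, while it called 0% of all genes in the dark and 12.8% in the light. Without replicate 2 of the dark glucose groups, 0 members were called in the dark, where 4.63% of all genes were (1.85% higher and 2.78% lower). For rrn5 the dark libraries had 5.25, 12.0 and 5.65 CPM in WT and 12.1, 10.8 and 14.9 in the mutant. Replicate 2 of WT lay with the mutant. In the light the values were 7.82, 8.46 and 13.2 in WT and 9.03, 15.8 and 8.99 in the mutant. The median log2 fold change of the 48 members was 0.70 in the dark and 0.81 in the light. In the light the mutant effect on rrn5 was smaller with glucose than without it, by 1.57 on the log2 scale (SE 0.54, edgeR adjusted p = 0.0271). This was the only member whose genotype effect differed with glucose in the light, where 29.8% of all genes did (13.8% higher and 16.0% lower). In the dark no member passed that test (37.3% of all genes did, 17.5% higher and 19.7% lower).

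The glucose comparison within WT carried the same gene. In light-grown WT, rrn5 rose from 2.40, 2.29 and 1.95 to 7.82, 8.46 and 13.2 CPM, a log2 change of 1.88 ± 0.40 (SE, edgeR adjusted p = 0.000404). ATMG01370, ATMG00140 and ATMG00670 rose as well, by 1.29 to 2.02, and no member fell (of all tested genes 18.1% were higher, 18.3% lower and 36.4% either). In dark-grown WT, where 22.0% of all genes were higher and 20.9% lower (42.9% in all), rrn5 rose by 1.07 ± 0.39 (adjusted p = 0.0253), and without replicate 2 of that group the log2 change was 0.65 with an adjusted p of 0.239. There atp1 fell from counts of 12, 6 and 7 to 1, 0 and 0 (edgeR adjusted p = 0.0018). In the mutant 0 members were higher with glucose in the dark or the light (19.3 and 19.8% of all genes were), and 1 was lower in the dark, atp1 (21.4% of all genes were lower there and 23.2% in the light, for 40.7 and 43.0% in either direction).

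Light against dark called few members outside the 5 d mutant. In WT atp1 was lower at 4 d (13.5% of all genes were lower, 14.4% higher and 27.9% either) and ATMG00260 at 5 d (18.9, 16.5 and 35.4%), and no member was higher. The counts of ATMG00260 were 15, 2 and 1 in the dark and 0 in all 3 light libraries, so 1 dark library carried most of them. With glucose no member was called in WT (4.35% of all genes were higher, 3.45% lower and 7.80% either) or in the mutant (0.956, 0.465 and 1.42%), nor was any in the mutant at 4 d without it (1.62, 0.748 and 2.37%). In the mutant at 5 d 10 were higher (6.80% of all genes) and none lower (4.95%, and 11.7% either), with rrn5 rising by 1.39 ± 0.36 (SE, edgeR adjusted p = 0.0136) from 12.3, 8.92 and 6.601 to 32.8, 17.3 and 24.01 CPM. Without the libraries of raised KIN10, 0 members were called there (2.06% of all genes were). For ATMG00030 and ATMG00130 the mutant effect at 5 d was larger in the light than in the dark, by 1.91 ± 0.71 and 3.99 ± 1.17 (SE) on the log2 scale, with edgeR adjusted p of 0.0443 and 0.0106 (27.3% of all genes passed this test, 16.2% higher and 11.2% lower). At 4 d no member passed it (9.18% of all genes did, 4.82% higher and 4.37% lower).

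The only member called for age in the dark was atp1 (12.1% of all genes were higher at 4 d than at 3 d in WT and 11.5% in the mutant). Its counts in WT were 4, 0 and 2 at 3 d and 12, 6 and 7 at 4 d, and in the mutant they were 1, 1 and 1 and then 14, 5 and 14. The log2 changes were 2.76 ± 0.88 and 3.74 ± 0.95 (SE, edgeR adjusted p = 0.0213 and 0.00558). The WT call was lost under 5 of the 9 alternatives that tested atp1, with adjusted p up to 0.0905, and the mutant call held under all 10 that tested it, with adjusted p up to 0.0346. Too few counts were left to test atp1 when only the compared groups, or only the first numbering series at 3 d, were fitted. The filter on low counts keeps a gene through its highest libraries, and for atp1 these include libraries of 4 d in the dark. Its calls for age, for glucose in the dark and for light in WT at 4 d all involve such a group. The alternatives share these libraries, so a call that held under them is no independent support. The reads fall in a gene whose windows all occur in chromosome 2. The copy AT2G07698 was at 9.79, 1.00 and 6.70 CPM in WT at 3 d and at 4.67, 9.67 and 16.8 at 4 d, so the groups overlap. From 4 to 5 d atp1 fell in the mutant, to counts of 2, 2 and 0 (edgeR adjusted p = 0.0438, with 7.93% of all genes lower), and no member was called in WT (9.42% of all genes were). In light-grown WT of 4 d atp1 had 0 counts in all 3 libraries.

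Many nuclear genes that supply the mitochondrion were higher in the mutant, though not in every list or condition. Of 19 genes for respiratory chain and ATP synthase subunits, 2, 15, 11, 13 and 16 were higher in snrk1a1/a2 in the 5 conditions without glucose, in the order 3 d dark, 4 d dark, 4 d light, 5 d dark and 5 d light, and none was lower. Without the libraries of raised KIN10 the last count was 13, and at 4 d in the light 11 were higher and 1 was lower. The shares of all tested genes that were higher there are those given above, from 17.3 to 33.4%. At 3 d in the dark the 2 of 19 lie under the share of all tested genes. Cytochrome c, the mobile electron carrier, was among the largest, with CYTC-2 up by 2.15 ± 0.26 (SE, log2, edgeR adjusted p = 3.92e-08) at 4 d in the dark. Of 6 genes for import, chaperones and prohibitins, 5 were higher at 3 d and 6 in each of the other 4 conditions, with the prohibitin PHB4 up by 2.63 ± 0.23 at 4 d in the dark (adjusted p = 1.03e-10).

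The transcription and RNA processing list held changes in both directions. Of its 10 genes 5, 7, 7, 8 and 5 were higher and 1, the same gene in each, was lower. Of all tested genes 17.3, 29.5, 28.8, 29.9 and 33.4% were higher in these conditions and 14.3, 28.5, 25.2, 31.4 and 26.4% lower. RPOTMP, an RNA polymerase of mitochondria and plastids, rose by 2.61 ± 0.26 (SE, log2, edgeR adjusted p = 6.56e-10) at 4 d in the dark, and PNPASE_MT, a polynucleotide phosphorylase that trims and degrades mitochondrial RNA, rose by 2.94 ± 0.36 (adjusted p = 3.93e-08). RNR1, an exoribonuclease, fell by 0.92 there and by 1.61 at 5 d in the light (adjusted p = 4.68e-05 and 5.21e-09). At 5 d in the light 7 were higher and 1 was lower without the libraries of raised KIN10. Of 5 genes for mitochondrial DNA maintenance 0, 4, 1, 2 and 1 were higher in the same order of conditions and 0, 0, 1, 0 and 2 were lower. The same shares of all tested genes stand beside this list, and its share higher was under them at 3 d in the dark and in the light. The helicase TWINKLE rose by 2.63 ± 0.31 at 4 d in the dark (adjusted p = 2.13e-08) and by 2.60 ± 0.32 at 5 d in the dark (adjusted p = 2.36e-08). At 5 d in the light MSH1, which keeps the organelle genomes stable, rose by 0.66 ± 0.24 (adjusted p = 0.0165), and the DNA polymerase POLIA fell by 0.61 (adjusted p = 0.00239). There, 2 genes of this list were higher and none was lower without the libraries of raised KIN10.

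With glucose none of the 40 nuclear genes was called between the genotypes, where 0% of all tested genes were called in the dark and 9.46% in the light. The prohibitin PHB3 alone was higher in the dark without replicate 2 of both groups (1.85% of all genes were). In WT all 19 respiratory genes were higher with glucose in the dark and 18 in the light, where 22.0 and 18.1% of all tested genes were higher. SDH1-1, the flavoprotein of succinate dehydrogenase, rose by 1.13 ± 0.12 (SE, log2, edgeR adjusted p = 3.70e-09) in the dark and by 1.24 ± 0.12 (adjusted p = 4.47e-10) in the light. In the dark 17 were higher without replicate 2 of the glucose group. In the mutant 12 and 13 were higher and 1 was lower in each (19.3 and 19.8% of all tested genes were higher, 21.4 and 23.2% lower). The mutant effect differed with glucose for 7 of the 19 in the dark and 5 in the light, and was lower with glucose in each. Of all tested genes 37.3 and 29.8% passed these tests, which is near the list's share in either direction, and 19.7 and 16.0% had a lower effect with glucose. The dark count was 5 without replicate 2 of the dark glucose groups, and the light count stayed at 5 without the libraries of raised KIN10.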

How the data were processed

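RNA from whole seedlings was sequenced, and the authors deposited raw read counts per transcript model, made with featureCounts 1.6.2 on TAIR10 gene models per the file headers. STAR and DESeq2 are named in the submitters' processing notes without a role. The tables' transcript length column was deposited beside the counts and used for levels per kb. The counting options recorded in the headers assign a read to every overlapping feature and name no strand. For each gene the transcript of largest length was kept, and 0 columns were left unmapped. The 3 d samples stand under both numbering series; counts of the same number differed by about sampling noise (chi-square per degree of freedom 1.04 to 1.06, against 7.75 to 45.6 between different numbers), so they were summed as repeat runs and counted once.

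Genes were tested with edgeR 4.0.16 in R 4.3.3 (TMM scaling, filter by group, robust quasi-likelihood fit of 14 groups, 28 residual degrees of freedom), checked on simulated data. Shares were tested by permutation within conditions (100000 resamples) in Python 3.11.15. Alternatives were DESeq2 1.42.0, no filter, scaling by nuclear genes, compared groups only, a replicate block, and leaving out libraries. At 3 d in the dark the same-numbered WT and mutant libraries deviated together (correlations 0.22, 0.20 and 0.33), so a replicate block was also fitted there. The pairing comes from these correlations, not from the labels, and no other comparison passed this check. Counting error limits the values of genes with few counts.

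Gene names come from a fixed list. Of its 41 identifiers 25 matched a RefSeq TAIR10.1 gene of that name exactly in length, 9 nearly or in part and 7 not, among them those listed as rrn26, matR and atp6-2. Printed sequences are from RefSeq TAIR10.1. Members and lists were chosen with earlier results of these data known. Named are, per comparison, up to 5 called members of largest change in each direction, the most abundant member of each list, the 5 most abundant members, up to 3 genes of smallest adjusted p per nuclear list, and the 5 genes most like the protein-coding share. Other named members were chosen after their values were seen.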

Additional observations from a re-analysis of the deposited data

Results flagged for a closer look

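The genotype effect at 5 d differed between light and dark for ATMG00030 and ATMG00130, by an interaction term in the edgeR fit. For ATMG00030 the difference was 1.91 on the log2 scale (adjusted p = 0.0443), and it was lost under 12 of 18 alternatives, with adjusted p from 0.0198 to 0.529. For ATMG00130 it was 3.99 (adjusted p = 0.0106), lost under 2 of 18, with adjusted p from 0.00367 to 0.16. Without the mutant libraries of raised KIN10 no member passed this test.

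The genotype effect on rrn5 in the light differed with glucose, by -1.57 on the log2 scale (edgeR interaction term, adjusted p = 0.0271), and it was lost under 6 of 18 alternatives, with adjusted p from 0.0118 to 0.0879. All glucose libraries carry the second numbering series, so glucose and series cannot be told apart.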

How the results depend on the processing

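Of 74 calls of a member in a comparison, 21 held under every alternative run for them; over 858 results of these calls under alternatives, 660 kept the call, 195 lost it and 3 reversed. Percentages in brackets are shares of all tested genes called in the same fit, in either direction. Without the libraries of raised KIN10, ATMG00120 reversed to -0.84 in genotype at 5 d light. In light in the mutant at 5 d, ATMG00120 reversed to -0.18 and ATMG00630 to -0.0597. Members called in these fits fell to 7 for genotype at 5 d light (50.3%). They fell to 0 for light in the mutant at 5 d (2.06%) and for the interaction with light at 5 d (9.22%). The difference in mitochondrial share between genotypes was 0.62. With compared groups only, 14 were called for genotype at 3 d dark (34.4%), 5 at 4 d light (49.5%) and 13 at 5 d light (47.6%). For light 0 were called in WT at 4 d (42.7%) and in the mutant at 5 d (0.0392%). For glucose 1 was called in dark WT (46.6%) and 0 in the dark mutant (41.7%). For age from 3 to 4 d 0 were called in WT (32.1%) and the mutant (30.8%), and 0 from 4 to 5 d in the mutant (0.850%). The interaction with light at 5 d gave 1 (16.3%). Of the 74 calls, 29 could not be retested in these fits because the member was filtered out. With the replicate block as well, chosen after seeing the data, genotype at 3 d dark gave 25 (38.5%). With the block in all libraries, light in WT at 5 d gave 0 (35.1%). Without the libraries against their labels, glucose gave 1 in dark WT (33.3%) and 0 in the dark mutant (33.9%). With no filter, glucose in the dark mutant gave 0 (26.9%) and the interaction with glucose in the dark 1 (23.7%). Age gave 0 in WT from 3 to 4 d (14.7%) and in the mutant from 4 to 5 d (6.46%). With DESeq2, the same age comparisons gave 0, where the adjusted p of atp1 is NA, and the interaction with light at 5 d 4. With the first numbering series alone, age from 3 to 4 d gave 0 in WT (23.8%) and in the mutant (23.1%), with atp1 filtered out. The share difference between genotypes was 0.61 for protein-coding genes and 0.96 in the glucose conditions, the latter added after seeing the data.

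Leaving out each replicate in turn, members called for genotype ranged from 1 to 5 at 3 d dark, 3 to 5 at 4 d dark, 3 to 9 at 4 d light, 4 to 11 at 5 d dark, 15 to 31 at 5 d light, 0 to 0 with glucose in the dark and 0 to 1 in the light. For light they ranged from 0 to 1 in WT at 5 d and 0 to 19 in the mutant at 5 d. For glucose they ranged from 1 to 2 in dark WT, 1 to 4 in light WT and 0 to 1 in the dark mutant. For age they ranged from 0 to 1 in WT from 3 to 4 d and in the mutant from 4 to 5 d. The interaction with light at 5 d gave 0 to 12 and that with glucose in the light 0 to 1. Shares of all genes called were not computed for these fits, so the counts stand without that background. The share difference ranged from 0.75 to 0.99 for genotype, -0.44 to -0.16 for light and -0.48 to -0.03 for glucose.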
